A study of Rattus norvegicus with 115 samples.

Results

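Antiviral interferon-stimulated genes were followed through 9 of the 14217 genes measured on the arrays: Rsad2, Mx1, Irf7, Irf9, Usp18, Ifit3, Ifih1, Ddx60 and Herc6. They were chosen by symbol, with earlier results of these data known, and so were the tests. Each was read from a probe set annotated to that symbol alone, and where a gene had several probe sets, the 1 with the highest mean over the 115 arrays was used. Irf9 had 2 such probe sets and the other 8 genes had 1. They are described by tissue, treatment and time, with a test of an early rise at 6 h and of a late rise at 8 d.

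The series profiled brain tumours grown in Fisher rats from implanted 9L cells, a rat glioma line that the labels call glioblastoma, and the opposite, tumour-free hemisphere of the same animals. Irradiation was given 10 days after cells had been placed in the right caudate nucleus, and it reached both hemispheres. MRT, microbeam radiotherapy, is synchrotron light cut into thin parallel beams, here with 400 Gy in the beams and 18 Gy in the valleys between them. BB, the broad beam, is the same kind of light given evenly, at a dose just below that of the valleys. MRT tumours were sampled at 6 h, 48 h, 8 d and 15 d with 9, 8, 7 and 4 arrays, and BB tumours with 6, 4, 4 and 4. Untreated tumours were sampled at 6 h, 48 h and 8 d with 5, 4 and 4 arrays, and no untreated sample of 15 d was analysed here. For the contralateral region the numbers were 9, 7, 6 and 4 after MRT, 6, 3, 4 and 4 after BB, and 5, 4 and 4 without treatment. Of the 60 rats, 55 gave both tissues. A tumour from 1 implanted line stands for that line only, and each array holds RNA of a piece of tissue. In such samples fewer cells of a type and less RNA per cell cannot be told apart. The number of arrays per group limits the precision, and p-values measure the spread between these animals. All levels are log2 of array intensity, so that a difference of 1 is 2-fold.

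Type I interferons are secreted when a cell's sensors meet nucleic acid in the wrong place, and radiation damage can supply such nucleic acid. They bind a receptor shared by nearly all cells and activate a transcription complex that includes IRF9 and binds the interferon-stimulated response element in the promoters of antiviral genes. Interferon gamma, made by T and NK cells, acts through another receptor and the gamma-activated site, and induces a partly overlapping gene set. Among the 9 genes, Ifih1 encodes MDA5, a sensor of double-stranded RNA, and Ddx60 a helicase-like protein linked to the same sensing pathway. Irf7 and Irf9 encode transcription factors. The product of Irf7 drives further interferon production and that of Irf9 is the DNA-binding part of the complex above. Rsad2 (viperin, which makes a nucleotide that stops viral RNA synthesis), Mx1 (a GTPase that traps viral ribonucleoproteins) and Ifit3 (a partner of proteins that bind viral RNA) are effectors. Usp18 removes ISG15 from proteins and dampens signalling at the receptor, and Herc6 attaches ISG15 to proteins, a role known from the mouse.

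Promoters are shown because the genes were picked as targets of 1 signalling pathway. RefSeq promoter sequences of build GRCr8 were found for 8 of the 9 genes, all but Usp18. Among these 8, 5 held the core of the interferon-stimulated response element, which is 2 copies of GAAA with any 2 bases between them, on either strand (TTTC, 2 bases and TTTC when it lies on the strand opposite to the gene), within 250 bases before the gene start, against 3.41% of 33469 rat promoters. The gamma-activated site TTCNNNGAA, which is its own reverse complement, was found in 1 of the 8 (Irf9) against 7.67% of all promoters. Mx1 and Herc6 held neither in this window. The motif is in capitals, with 20 bases on each side, read 5′ to 3′ on the gene's strand. The windows are chr6:48788238-48788287 (minus strand) for Rsad2, chr1:205800063-205800112 (minus) for Irf7, chr15:33065717-33065765 (plus) for Irf9, chr1:241527262-241527311 (plus) for Ifit3 and chr3:67683998-67684047 (minus) for Ifih1. Ddx60 had 2 matches that do not overlap, in the windows chr16:33208883-33208932 and chr16:33208849-33208898 (both minus). The gene start that was used lies inside the annotated gene for 6 of the 8 (Rsad2, Mx1, Irf7, Irf9, Ddx60 and Herc6), by 4 bases for Ddx60 to 520 for Irf7. For Irf9 it lies 414 bases inside. The matches of Irf7 and Irf9 begin 69 and 99 bases before the start used, so both lie inside the annotated gene. A match describes the letters and shows no binding.
Rsad2: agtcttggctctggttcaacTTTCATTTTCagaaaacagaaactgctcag
Irf7: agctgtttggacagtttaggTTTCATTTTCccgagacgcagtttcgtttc
Irf9: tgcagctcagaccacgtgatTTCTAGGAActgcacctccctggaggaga
Ifit3: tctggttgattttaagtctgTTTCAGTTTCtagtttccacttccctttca
Ifih1: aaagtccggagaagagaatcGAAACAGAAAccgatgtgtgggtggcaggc
Ddx60, far match: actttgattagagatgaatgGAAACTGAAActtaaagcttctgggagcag
Ddx60, near match: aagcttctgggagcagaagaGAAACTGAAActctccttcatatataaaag

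The labels were checked with Cdkn1a, a p53 target induced by radiation. Its log2 level in contralateral brain at 6 h was 10.74 to 11.98 after MRT and 10.52 to 11.23 after BB, against 6.81 to 8.06 in untreated rats, and at 6 h, 48 h and 8 d every irradiated array of either tissue lay above every untreated array of its tissue and time. Several arrays stood apart from their group. The untreated tumour of rat 5 at 6 h had the highest mean of the 9 genes among untreated tumours of that time, 9.11 against 6.87 to 7.36 in the other 4, while its Cdkn1a was not raised. MRT rat 10 at 6 h had the lowest mean in both tissues, 7.42 in the tumour and 6.37 in the contralateral brain, with Cdkn1a at the top of the contralateral group, 11.98. MRT tumours of rats 37 and 38 at 8 d were rich in neuronal markers, with a mean of 10.85 and 10.98 against 8.86 to 9.73 in the other 5 MRT tumours, and Cdkn2a, a marker of 9L cells, was 5.67 and 5.13 in them. Cdkn2a was also raised in some contralateral samples, with 8.07 in rat 60 (BB at 15 d), 7.38 in rat 30 (untreated at 8 d) and 6.30 in rat 18 (untreated at 48 h), where the BB arrays of 6 h had 3.91 to 4.81. All differences between BB arrays and MRT or untreated arrays share 1 limit. BB samples were processed with other software steps, per the submitters' processing notes. Treatment and processing therefore cannot be told apart in these comparisons.

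Averaged over the 9 genes, expression in irradiated tumours lay above the untreated mean at 6 h, 48 h and 8 d and was highest at 8 d. In contralateral brain it stayed high after MRT to 15 d. The mean of BB tumours was lower at 48 h than at 6 h, while in MRT tumours these times differed by less than the spread. In MRT tumours the group means of Mx1, Irf7, Ifih1 and Ddx60 were higher at 48 h than at 6 h. Those of Rsad2, Irf9, Usp18, Ifit3 and Herc6 were lower. The mean log2 level in MRT tumours was 8.50 ± 0.58 at 6 h, 8.31 ± 0.34 at 48 h, 9.95 ± 0.68 at 8 d and 8.89 ± 0.49 at 15 d (SD, n = 9, 8, 7 and 4). In BB tumours it was 8.66 ± 0.49, 7.92 ± 0.69, 9.42 ± 0.59 and 8.62 ± 0.41 at these times, and in untreated tumours it was 7.50 ± 0.93, 7.55 ± 0.22 and 7.49 ± 0.56 at 6 h, 48 h and 8 d. In contralateral brain the means were 7.90 ± 0.65, 7.71 ± 0.37, 8.28 ± 0.15 and 8.35 ± 0.18 after MRT. After BB they were 7.62 ± 0.19, 6.92 ± 0.10, 7.41 ± 0.75 and 7.22 ± 0.23, and without treatment 6.10 ± 0.06, 6.45 ± 0.32 and 6.14 ± 0.13. Each treatment is compared with the same untreated arrays, and the tests of 6 h or 8 d against 48 h share the untreated arrays of 48 h.

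**Figure D1:**
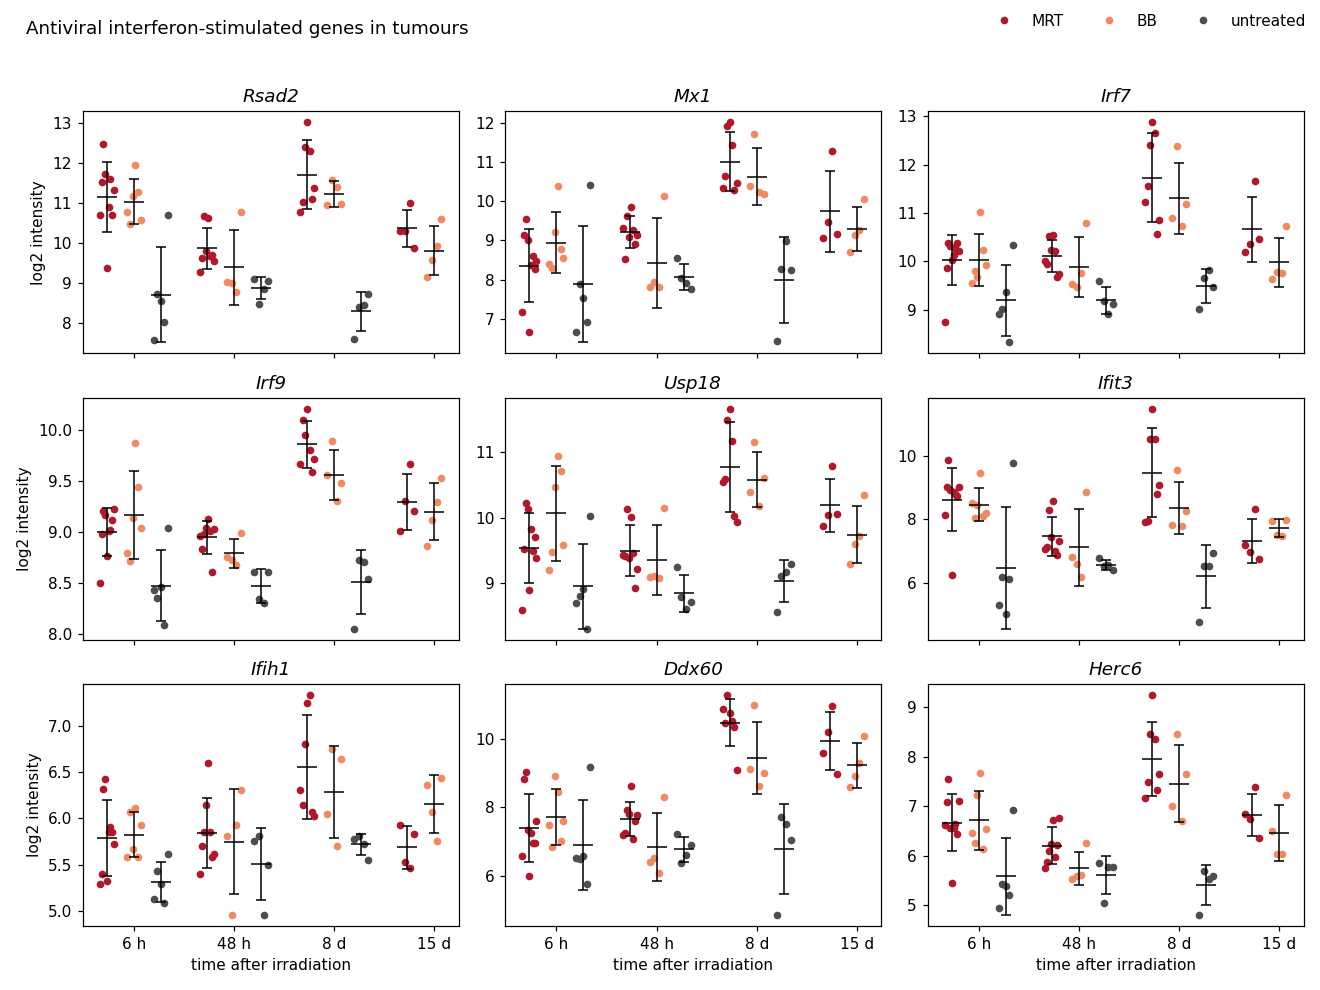
Log2 intensity of the 9 genes in each tumour array (points) by time after irradiation, with the mean and SD of each group as bars; MRT is left of BB and BB left of untreated, and 15 d has no untreated group. At 8 d all MRT points lie above all untreated points for each of the 9 genes.

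At 6 h, 2 of the 9 genes, Rsad2 and Ifit3, were higher in MRT tumours than in untreated tumours, where 1.01% of all genes were called higher at adjusted p under 0.05 (limma, Benjamini-Hochberg over 14217 genes). After BB 5 of the 9 were higher, Rsad2, Ifit3, Usp18, Irf9 and Herc6, against 10.3% of all genes. The differences of all 9 were positive, with medians of 0.58 log2 for MRT and 1.06 for BB, beside -0.01 and 0.05 over all genes.

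The level of the effector Rsad2 at 6 h ran from 9.38 to 12.47 with a median of 11.33 in MRT tumours and from 10.48 to 11.95 with a median of 10.98 in BB tumours, against 7.58, 8.72, 8.54, 8.03 and 10.70 in the untreated tumours of rats 1 to 5. Only rat 5 reached into the irradiated range. The difference was 2.43 ± 0.39 (SE) log2 for MRT, 5.40-fold with an adjusted p of 5.96e-05, and 2.32 ± 0.42 for BB with an adjusted p of 0.000264. Ifit3, the RNA-binding partner, ran from 6.23 to 9.86 with a median of 8.86 in MRT tumours and from 8.03 to 9.46 with a median of 8.31 in BB tumours. The untreated tumours of rats 1 to 5 had 5.29, 6.17, 5.00, 6.11 and 9.77, so rat 5 again lay among the irradiated arrays and the other 4 below all of them. Its difference was 2.15 ± 0.55 for MRT (adjusted p = 0.0255) and 1.99 ± 0.60 for BB (adjusted p = 0.0165).

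The other effector, Mx1, overlapped more. Its level was 6.66 to 9.54 with a median of 8.48 in MRT tumours and 8.30 to 10.39 with a median of 8.67 in BB tumours, against 6.67, 7.88, 7.54, 6.93 and 10.40 in untreated tumours, and neither difference was called (0.47 ± 0.47 and 1.06 ± 0.52). Irf9 had a difference of 0.53 ± 0.15 after MRT (adjusted p = 0.0591) and 0.70 ± 0.16 after BB (adjusted p = 0.00271). Its MRT call was gained with arrays set to a common median (adjusted p = 0.0486), without the dimmest 30% of genes (adjusted p = 0.0478) and with the mean of its probe sets (adjusted p = 0.0278). Its second probe set gave the opposite calls, 0.60 with an adjusted p of 0.0233 after MRT and 0.41 with an adjusted p of 0.0760 after BB. The ISG15-related genes Usp18 and Herc6 had differences of 1.12 ± 0.31 and 1.13 ± 0.34 after BB, and of 0.58 ± 0.29 and 1.08 ± 0.31, not called, after MRT. No gene of the 9 was without overlap between irradiated and untreated tumours at 6 h, where 0.436% of all genes lay wholly above untreated after MRT and 2.78% after BB.

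These counts rest on single arrays. Without the untreated tumour of rat 5, 4 genes were called after MRT, with Irf9 (0.67, adjusted p = 0.00975) and Herc6 (1.42, adjusted p = 0.00612) added, and 7 after BB, with Mx1 (1.69, adjusted p = 0.0185) and Irf7 (1.13, adjusted p = 0.0309) added. Without the MRT tumour of rat 10, a setting chosen after seeing the data, the same 2 were added for MRT, Irf9 at 0.56 (adjusted p = 0.0351) and Herc6 at 1.23 (adjusted p = 0.0156). The MRT call of Ifit3 was lost without any 1 of the untreated rats 1, 2, 3 and 4 (1.78 to 2.07, adjusted p from 0.0854 to 0.183). The BB call of Ifit3 was lost without untreated rat 1 (1.69, adjusted p = 0.0548) or rat 3 (1.62, adjusted p = 0.0736), and that of Herc6 without rat 1 (0.97, adjusted p = 0.0537). When the fit was limited to the groups compared, Ifit3 lost its MRT call (adjusted p = 0.244) and all 5 BB calls were lost, with adjusted p from 0.0569 to 0.129. Rat 5 also had the highest monocyte and macrophage marker mean of its group, 9.17 against 7.25 to 7.51, and the part of these cells in its high values was not tested.

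At 48 h no gene of the 9 was called in tumours after either treatment (limma), where 1.86% of all genes were called higher after MRT and 1.37% after BB. At an unadjusted p under 0.05 there were 5 for MRT and 0 for BB. The second probe set of Irf9, not counted here, was called after MRT (0.62 ± 0.17, adjusted p = 0.0297) and not after BB (0.44 ± 0.19, adjusted p = 0.195). Rsad2 was 9.29 to 10.69 with a median of 9.69 in MRT tumours and 9.03, 9.00, 8.77 and 10.79 in the BB tumours of rats 50, 53, 51 and 52, against 9.11, 8.49, 8.87 and 9.05 in untreated tumours. All MRT values lay above all untreated values, as they also did for Irf7 and Ifit3 and for 3.25% of all genes, and among BB tumours only rat 52 stood clear. The Rsad2 difference was 0.99 ± 0.43 for MRT (adjusted p = 0.239) and 0.52 ± 0.50 for BB (adjusted p = 0.593). Rat 52 had the highest value of the 4 BB tumours for all 9 genes, and its macrophage marker mean was 9.09 against 8.39 to 8.50. With a spread taken from the groups compared alone, Mx1 (1.15, adjusted p = 0.0115), Irf7 (0.92, adjusted p = 0.0142) and Irf9 (0.48, adjusted p = 0.0437) were called after MRT.

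At 8 d all 9 genes were higher in MRT tumours than in untreated tumours, without any overlap between the groups, where 21.8% of all genes were called higher. In BB tumours 8 of the 9 were higher, all but Ifih1 and also without overlap, against 8.36% of all genes. Of all genes, 14% lay wholly above untreated tumours after MRT and 5.29% after BB. The median difference was 2.55 log2 after MRT and 2.05 after BB, beside -0.04 and -0.02 over all genes.

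The sensing-related helicase gene Ddx60 had the greatest difference of the 9 after MRT. It ran from 9.07 to 11.28 with a median of 10.50 in MRT tumours and was 9.11, 10.98, 8.62 and 9.01 in the BB tumours of rats 54, 55, 56 and 57, against 4.86, 7.71, 7.52 and 7.06 in the untreated tumours of rats 27 to 30. Every irradiated value was above every untreated one, and BB rat 55 was at the level of the MRT group. The difference was 3.68 ± 0.54 for MRT (12.8-fold, adjusted p = 3.22e-07) and 2.64 ± 0.61 for BB (adjusted p = 0.00195, and 0.0550 with only the groups compared). The RNA sensor Ifih1 moved least and was also the dimmest of the 9 genes, with a mean of 5.64 over all arrays. It was 6.02 to 7.34 with a median of 6.30 in MRT tumours and 6.04, 6.75, 5.70 and 6.64 in BB tumours, against 5.78, 5.81, 5.73 and 5.55 in untreated tumours, and its difference was 0.84 ± 0.24 for MRT (adjusted p = 0.00354) and 0.57 ± 0.27 for BB (adjusted p = 0.122).

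Among the effectors, Rsad2 was 10.77 to 13.01 with a median of 11.37 in MRT tumours and 10.95, 11.59, 11.39 and 10.97 in BB tumours, against 7.61, 8.40, 8.46 and 8.73 in untreated tumours. Its difference was 3.41 ± 0.44 for MRT (10.6-fold, adjusted p = 2.76e-08) and 2.93 ± 0.50 for BB (adjusted p = 7.94e-05). For Mx1 the levels were 10.27 to 12.00 with a median of 10.64 in MRT tumours and 10.37, 11.70, 10.24 and 10.17 in BB tumours, against 6.43, 8.27, 8.99 and 8.23 in untreated tumours. The gap of more than 1 unit between the groups gave differences of 3.02 ± 0.53 for MRT (adjusted p = 8.10e-06) and 2.64 ± 0.60 for BB (adjusted p = 0.00175). Ifit3 was the most spread: 7.91 to 11.47 with a median of 9.08 in MRT tumours and 7.80, 9.54, 7.79 and 8.24 in BB tumours, against 4.75, 6.54, 6.54 and 6.94 in untreated tumours. Its difference was 3.27 ± 0.62 for MRT (adjusted p = 2.44e-05) and 2.15 ± 0.70 for BB (adjusted p = 0.0215). The BB call of Ifit3 was lost without untreated rat 27 (1.67, adjusted p = 0.119) or without BB rat 55 (1.75, adjusted p = 0.107).

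The transcription factor genes followed. Irf7 was 10.57 to 12.87 with a median of 11.56 in MRT tumours and 10.90, 12.38, 10.74 and 11.19 in BB tumours, against 9.02, 9.66, 9.82 and 9.47 in untreated tumours, a difference of 2.24 ± 0.36 for MRT (adjusted p = 1.93e-06) and 1.81 ± 0.41 for BB (adjusted p = 0.00169). Irf9 had a narrower range: 9.59 to 10.21 with a median of 9.80 in MRT tumours and 9.56, 9.89, 9.30 and 9.48 in BB tumours, against 8.05, 8.72, 8.71 and 8.54 in untreated tumours. Its difference of 1.36 ± 0.17 for MRT (adjusted p = 1.50e-08) was smaller than that of Rsad2 and more uniform over the arrays, and after BB it was 1.05 ± 0.19 (adjusted p = 0.000169). The ISG15-related genes rose as well, Usp18 by 1.74 ± 0.32 after MRT and 1.55 ± 0.37 after BB, and Herc6 by 2.55 ± 0.35 after MRT and 2.05 ± 0.40 after BB. All 9 MRT calls held without rats 37 and 38, a setting chosen after seeing the data.

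Cell type markers also differed between irradiated and untreated tumours at 8 d. In MRT tumours at 8 d all 11 monocyte and macrophage markers measured and all 11 T and NK cell markers were called higher than in untreated tumours, with median differences of 2.12 and 2.72, and the summary mean per array ran from 9.99 to 11.49 against 8.04 to 9.15 for macrophages and from 9.06 to 10.86 against 6.16 to 8.19 for T and NK cells. Cdkn2a was lower by 3.82 log2, all 10 markers of dividing cells were lower, and 9 of 11 neuronal markers were higher. In this comparison 21.8% of all genes were called higher, and 3704 of 14217 were called lower. In BB tumours 4 of 11 macrophage and 2 of 11 T and NK cell markers were called higher, where 8.36% of all genes were. Rat 55 led the BB group at 8 d for all 9 genes, and its macrophage marker mean was 11.43 against 8.78 to 9.50 in the other 3. The part of these cells in the rise of the 9 genes was not tested. 

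**Figure D2:**
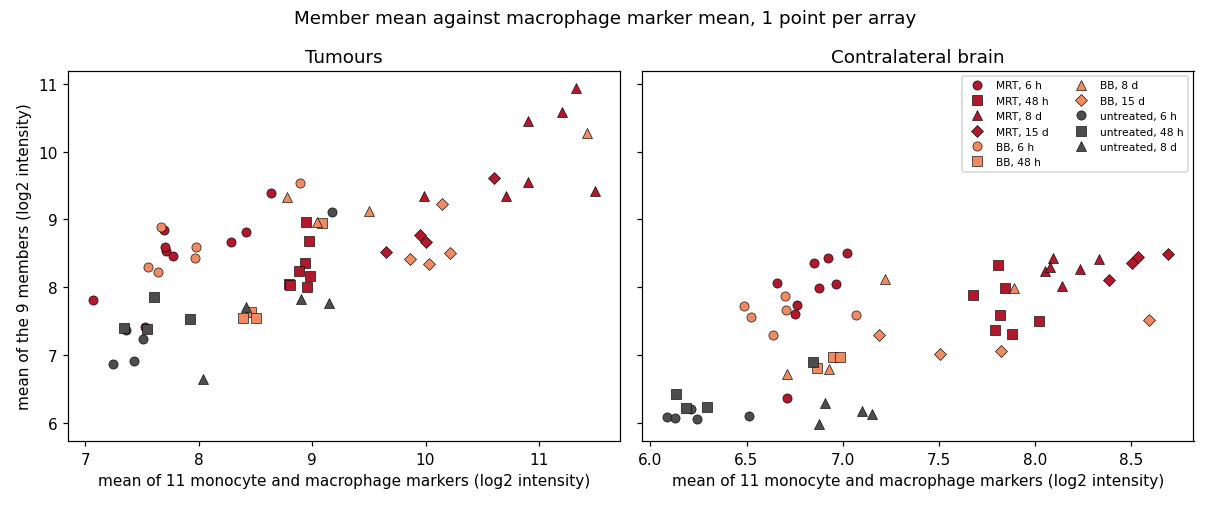
Mean log2 intensity of the 9 genes (vertical axis) against the mean of 11 monocyte and macrophage markers (horizontal axis), 1 point per array, with tumours and contralateral brain in separate panels and colours for MRT, BB and untreated. The untreated tumour of rat 5 lies at 9.17 and 9.11, away from the other untreated tumours of 6 h.

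In tumours the late rise passed its test for part of the genes, and the early rise over 48 h passed for none. The MRT effect, which is the difference from untreated tumours of the same time, was greater at 8 d than at 48 h for 6 of the 9 genes, where 11.2% of all genes were called in that direction. These were Ddx60 (by 2.80 ± 0.75, adjusted p = 0.00562), Rsad2 (2.42 ± 0.61, adjusted p = 0.00366), Ifit3 (2.37 ± 0.86, adjusted p = 0.0332), Herc6 (1.96 ± 0.49, adjusted p = 0.00327), Irf7 (1.33 ± 0.51, adjusted p = 0.0425) and Irf9 (0.88 ± 0.24, adjusted p = 0.00565). The BB effect was greater at 8 d than at 48 h for 4 genes, against 5.44% of all genes: Ddx60 (2.59 ± 0.86), Rsad2 (2.41 ± 0.70), Herc6 (1.92 ± 0.56) and Irf9 (0.73 ± 0.27, adjusted p = 0.0497). For 6 h against 48 h no gene was called after MRT or BB (limma), and 1 gene each time had an unadjusted p under 0.05, with 0.0281% and 5.04% of all genes called. The 6 h effect minus the 48 h effect of Rsad2 was 1.44 (95% interval from 0.28 to 2.60, adjusted p = 0.370) after MRT and 1.80 (0.49 to 3.11, adjusted p = 0.0755) after BB. Without the untreated tumour of rat 5, Rsad2 was called for BB (2.30, adjusted p = 0.0172), and likewise without BB rat 52 (2.27, adjusted p = 0.0308).

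The calls at 8 d against 48 h varied when 1 array was left out, from 4 to 7 genes for MRT and from 1 to 5 for BB. For MRT, Irf7 was lost without any 1 of untreated rats 15, 16, 17 and 18 of 48 h or 27, 28 and 30 of 8 d (1.17 to 1.42, adjusted p from 0.0534 to 0.104), Ifit3 without rat 17 (2.38, adjusted p = 0.0630) or 27 (1.89, adjusted p = 0.113), and Mx1 was gained without rat 29 (2.21, adjusted p = 0.0279). For BB, Irf9 was lost without any 1 of 14 of the 16 arrays, and Ddx60 without untreated rats 17, 18 or 27 or BB rats 50, 51 or 55 (1.94 to 2.64, adjusted p from 0.0526 to 0.107). Herc6 was lost without BB rat 55 (1.59, adjusted p = 0.0555) and Rsad2 without BB rat 51 (2.20, adjusted p = 0.0501), and Mx1 was gained without untreated rat 29 or BB rats 52 or 57 (2.44 to 2.86, adjusted p from 0.0244 to 0.0359). Without MRT rats 37 and 38, 8 genes were called for MRT, with Mx1 (2.13, adjusted p = 0.0436) and Usp18 (1.40, adjusted p = 0.0214) added. Mx1 was also gained under quantile normalization (adjusted p = 0.0496), without the dimmest 30% of genes (adjusted p = 0.0450) and, with Usp18 (adjusted p = 0.0431), when only the groups compared were fitted (adjusted p = 0.0149). With arrays set to a common median Irf7 was lost for MRT (adjusted p = 0.0514) and Irf9 for BB (adjusted p = 0.0554). The BB call of Irf9 was lost with the mean of its probe sets (adjusted p = 0.0718), and that of Ddx60 with only the groups compared (adjusted p = 0.0552).

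In MRT tumours 6 of the 9 genes were lower at 15 d than at 8 d, where 11.8% of all genes were called lower: Ifit3, Rsad2, Herc6, Irf7, Ifih1 and Irf9. Ifit3 was 7.20, 6.98, 8.33 and 6.74 in the MRT tumours of rats 40 to 43 at 15 d, against 7.91 to 11.47 with a median of 9.08 at 8 d, and differed by -2.15 ± 0.62 (adjusted p = 0.00836). Only rat 42 reached into the 8 d range. Ifih1 was 5.93, 5.52, 5.46 and 5.83 at 15 d, all below the lowest 8 d value of 6.02, and differed by -0.88 ± 0.24 (adjusted p = 0.00628). Ddx60 was 9.59, 10.19, 10.94 and 8.97 at 15 d against 9.07 to 11.28 with a median of 10.50 at 8 d, a difference of -0.54 ± 0.54 that was not called. In BB tumours all 9 differences between 15 d and 8 d were negative and none was called (limma), with 5 at an unadjusted p under 0.05, where 0.633% of all genes were called lower. Rsad2, for example, was 9.15, 9.58, 9.92 and 10.60 in BB tumours at 15 d against 10.95, 11.59, 11.39 and 10.97 at 8 d, without overlap (-1.41 ± 0.50, adjusted p = 0.121). The second probe set of Irf9, not counted here, was called lower at 15 d in BB tumours (-0.68 ± 0.19, adjusted p = 0.0474). The count of 6 for MRT fell to 3 without rat 40, when Rsad2 (-1.31, adjusted p = 0.0577), Irf7 (-0.90, adjusted p = 0.114) and Irf9 (-0.47, adjusted p = 0.0731) were lost. Irf7 was also lost without rats 41 or 43 (adjusted p = 0.0735 and 0.0751) and with only the groups compared (adjusted p = 0.112), and Rsad2 (-1.17, adjusted p = 0.0817) and Herc6 (-0.97, adjusted p = 0.0720) without rat 43. Without rat 42 Mx1 was gained (-1.77, adjusted p = 0.0164), and in BB tumours Irf7 was gained without rat 57 of 8 d (-1.36, adjusted p = 0.0458). The MRT tumours of 15 d had T and NK cell marker means of 8.72 to 10.03 and Cdkn2a of 10.05 to 11.16, against 9.06 to 10.86 and 5.13 to 9.43 at 8 d.

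In untreated tumours the 9 genes showed no called change with time. None was called between 8 d and 6 h (limma), none had an unadjusted p under 0.05, and the differences ran from -0.41 to 0.41, although 16% of all genes were called higher at 8 d. In untreated contralateral brain none was called either, with 1 at an unadjusted p under 0.05 and 1.28% of all genes called higher. Ifih1 was called in untreated tumours (0.41, adjusted p = 0.0322) when only these groups were fitted.

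**Figure D3:**
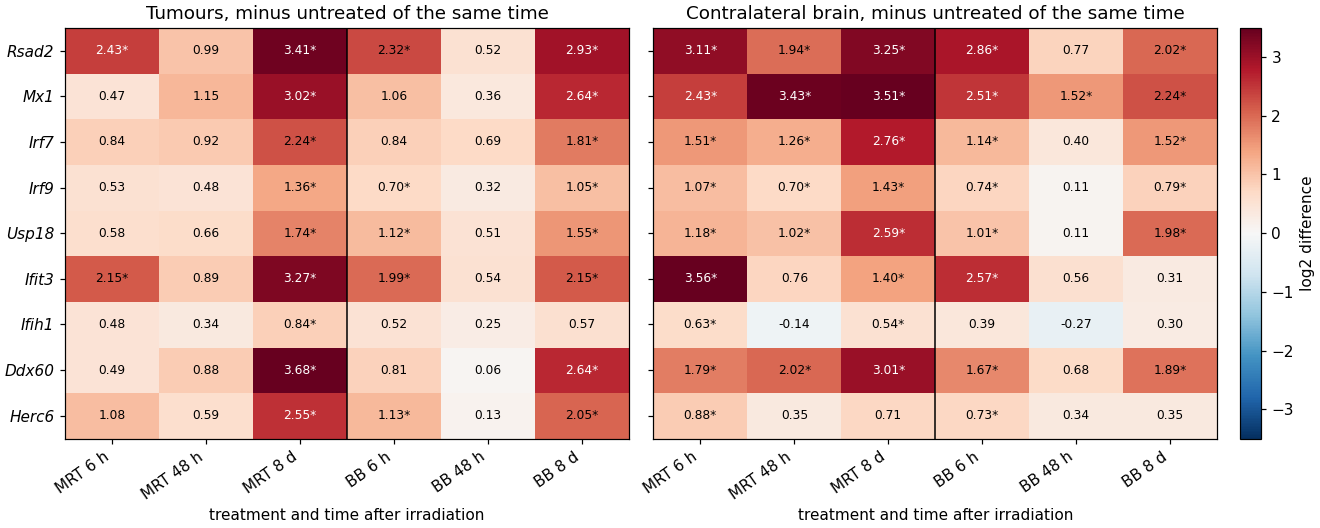
Log2 difference from untreated samples of the same tissue and time (colour and printed value) for the 9 genes, tumours on the left and contralateral brain on the right; a star marks adjusted p under 0.05. Tumour columns are strong at 8 d, and contralateral columns after MRT are strong at all 3 times for Rsad2, Mx1 and Ddx60.

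In contralateral brain at 6 h, 9 of the 9 genes were higher after MRT than in untreated brain, where 5.36% of all genes were called higher, and 8 of the 9 after BB, all but Ifih1, where 8.92% were. Without overlap were 4 genes after MRT and 7 after BB, as were 2.67% and 8.58% of all genes in the same direction. The median difference of the 9 genes was 1.51 after MRT and 1.14 after BB, beside -0.01 and -0.0045 over all genes.

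Ifit3 had the greatest difference of the 9 after MRT at 6 h, and Rsad2 after BB. In contralateral brain it ran from 6.85 to 9.57 with a median of 8.68 after MRT and from 7.40 to 8.09 with a median of 7.59 after BB, against 5.36, 5.00, 5.21, 4.64 and 5.32 in untreated rats 1 to 5. All irradiated values were higher than all untreated ones, with a difference of 3.56 ± 0.31 for MRT (11.8-fold, adjusted p = 1.84e-13) and 2.57 ± 0.33 for BB (adjusted p = 6.78e-08). Rsad2 ran from 7.99 to 11.23 with a median of 10.73 after MRT and from 9.85 to 10.36 with a median of 10.08 after BB, against 6.82, 7.67, 7.28, 7.43 and 6.81 in untreated brain. It too was without overlap, by 3.11 ± 0.32 for MRT (adjusted p = 4.45e-11) and 2.86 ± 0.34 for BB (adjusted p = 1.13e-08). Mx1 was 4.81 to 8.03 with a median of 7.32 after MRT and 6.69 to 7.62 with a median of 7.26 after BB, against 4.52, 4.46, 4.70, 5.04 and 4.86 in untreated brain. The lowest MRT value, 4.81, came from rat 10 and lay among the untreated values, while the BB group was well clear. Its difference was 2.43 ± 0.34 for MRT (adjusted p = 1.82e-07) and 2.51 ± 0.36 for BB (adjusted p = 1.13e-06).

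The other 6 genes differed by less at 6 h. Ddx60 rose by 1.79 ± 0.37 after MRT and 1.67 ± 0.40 after BB, Irf7 by 1.51 ± 0.20 and 1.14 ± 0.22, Usp18 by 1.18 ± 0.24 and 1.01 ± 0.26, Irf9 by 1.07 ± 0.15 and 0.74 ± 0.16, and Herc6 by 0.88 ± 0.21 and 0.73 ± 0.23, each pair in the order MRT then BB. Ifih1 was 0.63 ± 0.14 higher after MRT (adjusted p = 0.00153) and had a difference of 0.39 ± 0.16 after BB (adjusted p = 0.0709), where the groups did not overlap. Without MRT rat 10 all 9 MRT calls held. The BB call of Herc6 was lost without untreated rats 2, 3 or 4 (0.63 to 0.67, adjusted p from 0.0586 to 0.0693), and its MRT call when only the groups compared were fitted (adjusted p = 0.0823). Ifih1 was called after BB under quantile normalization (adjusted p = 0.0244), with arrays set to a common median (adjusted p = 0.0186) and with only the groups compared (adjusted p = 0.00267).

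**Figure D4:**
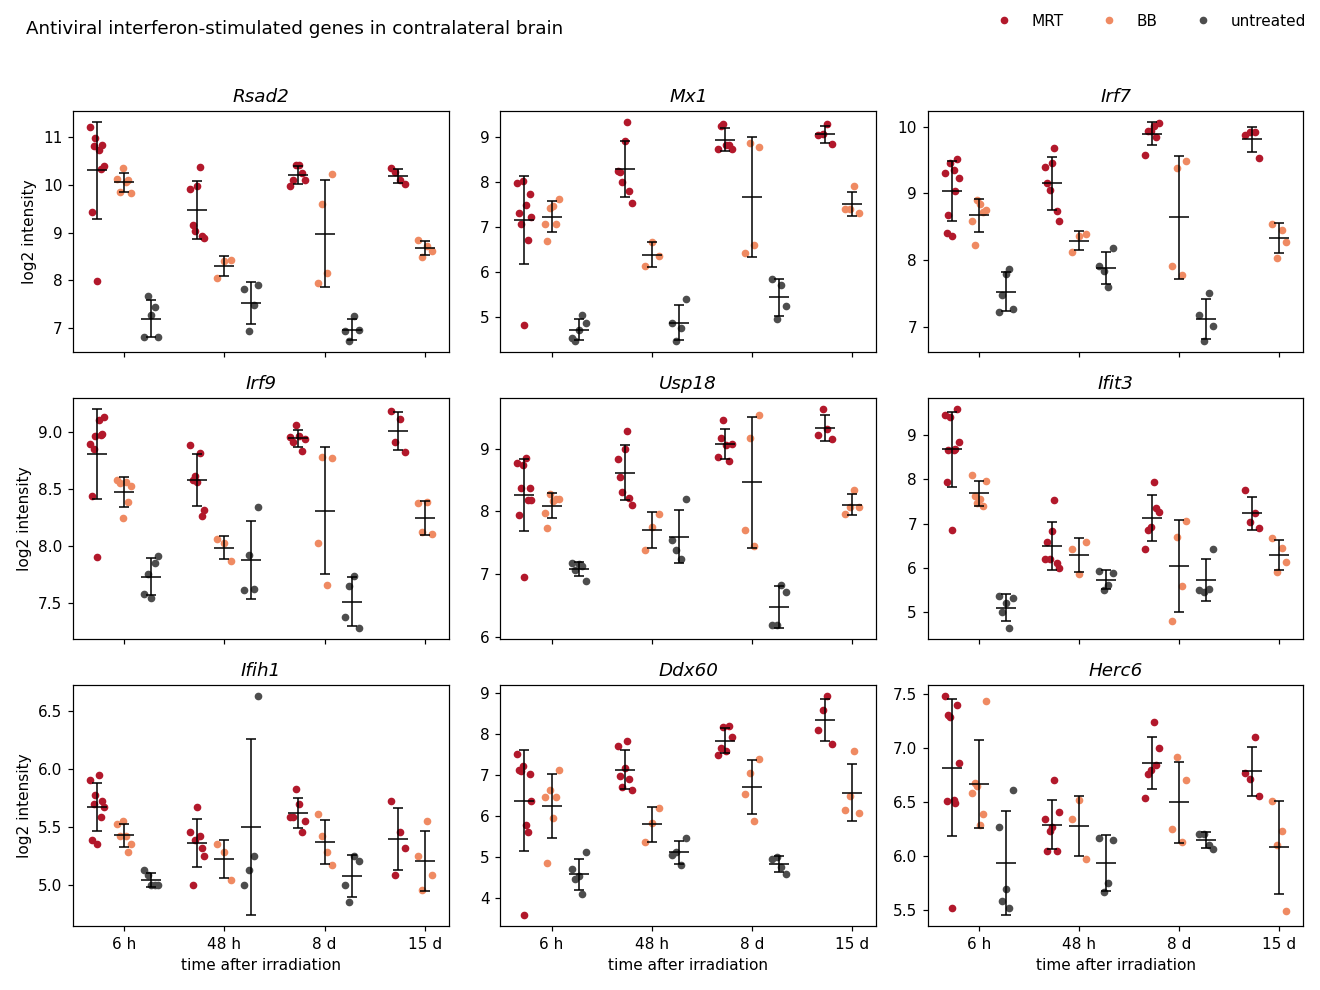
Log2 intensity of the 9 genes in each contralateral array (points) by time after irradiation, with the mean and SD of each group as bars; MRT is left of BB and BB left of untreated. The MRT group at 15 d, from 10.02 to 10.37 for Rsad2, lies above the BB group, from 8.50 to 8.85.

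At 48 h 6 of the 9 genes were still higher after MRT in contralateral brain (Mx1, Ddx60, Rsad2, Irf7, Usp18 and Irf9), where 13.2% of all genes were called higher, and 1 after BB (Mx1), where 6.46% were. Mx1 had the largest difference of the 9 at 48 h. It ran from 7.54 to 9.33 with a median of 8.23 in MRT brain and was 6.13, 6.67 and 6.36 in the BB brains of rats 50, 51 and 52, against 4.86, 4.46, 4.75 and 5.39 in untreated brain. The 3 groups were fully separate, with a difference of 3.43 ± 0.38 for MRT (10.8-fold, adjusted p = 1.39e-09) and 1.52 ± 0.46 for BB (adjusted p = 0.0195). Rsad2 was 8.90 to 10.37 with a median of 9.16 after MRT and 8.06, 8.42 and 8.43 after BB, against 7.81, 6.93, 7.48 and 7.90 in untreated brain, again without overlap, by 1.94 ± 0.36 for MRT (adjusted p = 8.30e-05) and 0.77 ± 0.43 for BB (adjusted p = 0.174). Ifit3 had fallen back: 6.00 to 7.54 with a median of 6.19 after MRT and 6.43, 5.86 and 6.58 after BB, against 5.93, 5.49, 5.61 and 5.88 in untreated brain, and neither difference was called (0.76 ± 0.34 and 0.56 ± 0.42). Ifih1 had -0.14 ± 0.16 after MRT and -0.27 ± 0.20 after BB, neither called, and its values here rest on untreated rat 18, at 6.63 against 5.00 to 5.25 in the other 3. The BB call of Mx1 was lost without BB rat 51 (1.38, adjusted p = 0.0823) or rat 52 (1.53, adjusted p = 0.0558) and when only the groups compared were fitted (adjusted p = 0.156). Ifit3 was called after MRT under quantile normalization (0.96, adjusted p = 0.0312).

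At 8 d 8 of the 9 genes were higher after MRT in contralateral brain, where 5.71% of all genes were called higher, and 6 after BB (Mx1, Rsad2, Usp18, Ddx60, Irf7 and Irf9), where 3.24% were. Without overlap and higher were 8 genes after MRT and 5 after BB, as were 7.88% and 8.12% of all genes. Mx1 was 8.73 to 9.30 with a median of 8.82 in MRT brain and 6.43, 8.87, 6.60 and 8.78 in the BB brains of rats 54 to 57, against 5.83, 4.95, 5.70 and 5.25 in untreated brain. The BB rats fell into a high pair, 55 and 57, at the level of MRT, and a low pair, 54 and 56, and all 4 lay above untreated. The difference was 3.51 ± 0.39 for MRT (11.4-fold, adjusted p = 1.95e-09) and 2.24 ± 0.43 for BB (adjusted p = 0.00136). Irf7 was 9.57 to 10.05 with a median of 9.93 after MRT and 7.92, 9.38, 7.79 and 9.48 after BB, against 7.18, 6.79, 7.51 and 7.02 in untreated brain, by 2.76 ± 0.24 for MRT (adjusted p = 7.63e-13) and 1.52 ± 0.26 for BB (adjusted p = 0.000361). Usp18 was 8.80 to 9.46 with a median of 9.06 after MRT and 7.70, 9.17, 7.44 and 9.53 after BB, against 6.19, 6.19, 6.82 and 6.71 in untreated brain, by 2.59 ± 0.28 for MRT (adjusted p = 5.87e-10) and 1.98 ± 0.30 for BB (adjusted p = 5.38e-05). For both genes all BB values lay above all untreated values, and rats 55 and 57 were again the high ones.

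Rsad2 and Ddx60 were likewise clear of untreated brain at 8 d, by 3.25 ± 0.37 and 3.01 ± 0.43 after MRT and 2.02 ± 0.40 and 1.89 ± 0.47 after BB. Irf9 rose by 1.43 ± 0.17 after MRT and by 0.79 ± 0.19 after BB. Ifit3, the gene of the greatest difference after MRT at 6 h, was 1.40 ± 0.35 higher after MRT (adjusted p = 0.00617) and had a difference of 0.31 ± 0.39 after BB (adjusted p = 0.736). Herc6, with 0.71 ± 0.25 after MRT (adjusted p = 0.0626), was the 1 gene of the 9 not called, although its groups did not overlap, and it was called when only the groups compared were fitted (adjusted p = 0.00240). Ifih1 lost its MRT call without untreated rat 39 (0.51, adjusted p = 0.0817) or 28 (0.47, adjusted p = 0.157). The BB calls of Irf9 were lost without rat 55 (0.64, adjusted p = 0.0561) or 57 (0.64, adjusted p = 0.0659) and with only the groups compared (adjusted p = 0.0749), and that of Ddx60 without rat 57 (1.67, adjusted p = 0.0598). The macrophage marker means of BB rats 55 and 57 were 7.89 and 7.22, those of rats 54 and 56 were 6.93 and 6.71, and Cdkn2a was 6.73 in rat 57 against 4.32 to 4.75 in the other 3. The part of these cells was not tested.

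In contralateral brain the change from 48 h differed between genes. The MRT effect was greater at 6 h than at 48 h for 2 genes, Ifit3 (by 2.80 ± 0.46, adjusted p = 3.03e-05) and Ifih1 (0.77 ± 0.22, adjusted p = 0.0185), against 6.11% of all genes, and the BB effect for 2, Rsad2 (2.09 ± 0.55) and Ifit3 (2.01 ± 0.53), both with an adjusted p of 0.0153, against 7.05% of all genes. At 8 d against 48 h the MRT effect was greater for Usp18 (1.57 ± 0.38, adjusted p = 0.0227) and Irf7 (1.50 ± 0.33, adjusted p = 0.0113), against 1.1% of all genes, and the BB effect for Usp18 alone (1.88 ± 0.44, adjusted p = 0.0210), against 2.76%. Mx1 had an MRT effect that was 1.00 ± 0.51 smaller at 6 h than at 48 h, which was not called, and 0.08 ± 0.54 greater at 8 d. The median over all genes of these 4 contrasts was 0.09, 0.11, 0.13 and 0.14, in the order MRT and BB for 6 h and then MRT and BB for 8 d.

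Part of these calls turned on untreated rat 18 of 48 h. Without it, Ifih1 lost its MRT call at 6 h against 48 h (0.40, adjusted p = 0.182), and Usp18 lost its calls at 8 d against 48 h for MRT (1.37, adjusted p = 0.0997) and BB (1.68, adjusted p = 0.0553). Usp18 was also lost without untreated rat 28 of 8 d (1.48, adjusted p = 0.0589, for MRT and 1.78, adjusted p = 0.0524, for BB), and for BB without rat 50 or 57 (1.72 and 1.52, adjusted p = 0.0629 and 0.0552). Ifit3 lost its BB call at 6 h against 48 h without BB rat 51 (1.80, adjusted p = 0.0643). Gains were Ifih1 at 6 h for BB without untreated rats 15, 16 or 17 (0.74 to 0.83, adjusted p from 0.0233 to 0.0410), Ifih1 at 8 d for MRT without the same rats (0.77 to 0.85, adjusted p from 0.0254 to 0.0346), Irf9 at 8 d for MRT without rats 15 or 17 (0.82, adjusted p from 0.0310 to 0.0369), and Rsad2 at 6 h for MRT without untreated rat 16 (1.36, adjusted p = 0.0447) or MRT rat 10 (1.45, adjusted p = 0.0107). For BB at 8 d, Irf7 was gained without untreated rat 17 (1.21, adjusted p = 0.0376) or BB rat 56 (1.40, adjusted p = 0.0223), and Irf9 without BB rat 56 (0.90, adjusted p = 0.0366). With only the groups compared Ifih1 was lost at 6 h for MRT (adjusted p = 0.131) and Usp18 at 8 d for BB (adjusted p = 0.357), and with arrays set to a common median Ifih1 was gained at 6 h for BB (adjusted p = 0.0425).

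In contralateral brain no change between 8 d and 15 d was called. None of the 9 genes was called between 15 d and 8 d after MRT or after BB (limma), none had an unadjusted p under 0.05, and 0.0352% of all genes were called higher after MRT and 0.535% lower after BB. Mx1 was 9.06, 9.08, 9.30 and 8.84 in the MRT brains of rats 40 to 43 at 15 d, against 8.73 to 9.30 with a median of 8.82 at 8 d (a difference of 0.12 ± 0.39). Usp18 was 9.22, 9.63, 9.32 and 9.16 at 15 d against 8.80 to 9.46 with a median of 9.06 at 8 d (0.26 ± 0.28). The 15 d arrays lay in or just above the 8 d range for both genes. Whether the fall in MRT tumours differs from the course in the brain was not tested.

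Part of the 9 genes were called higher in MRT than in BB contralateral brain, and no difference between these treatments was called in tumours. Treatment and processing cannot be told apart here. In tumours the count of genes called between MRT and BB was 0 of 9 at 6 h, 48 h, 8 d and 15 d (limma), and none had an unadjusted p under 0.05 at any of these times, with 10.2% of all genes called lower at 6 h and 0%, 0.985% and 1.65% called higher at 48 h, 8 d and 15 d. The intervals were wide. At 8 d the difference of Ddx60 was 1.04 (95% interval from -0.05 to 2.12) and that of Ifit3 1.11 (-0.12 to 2.35), and at 6 h that of Rsad2 was 0.11 (-0.63 to 0.85). At 15 d that of Mx1 was 0.45 (-0.76 to 1.66), so differences within such intervals were not resolved.

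In contralateral brain MRT was higher than BB for 1 gene at 6 h (Ifit3), 1 at 48 h (Mx1), 3 at 8 d (Irf7, Rsad2 and Irf9) and 6 at 15 d (Ddx60, Mx1, Rsad2, Irf7, Usp18 and Irf9), where 3.81%, 1.67%, 2.6% and 4.11% of all genes were called higher at these times. At 15 d Rsad2 was 10.37, 10.27, 10.12 and 10.02 in the MRT brains of rats 40 to 43, against 8.85, 8.50, 8.72 and 8.62 in the BB brains of rats 58 to 61, more than 1 unit apart throughout (1.52 ± 0.40, adjusted p = 0.0145). Irf7 was 9.87, 9.91, 9.92 and 9.54 in MRT brains, against 8.55, 8.04, 8.46 and 8.28 in BB brains (1.48 ± 0.26, adjusted p = 0.000131). Ddx60 was 8.09, 8.58, 8.92 and 7.77 in MRT brains, against 6.15, 6.48, 7.58 and 6.07 in BB brains (1.77 ± 0.47, adjusted p = 0.0151). Of the BB rats, rat 60 came closest to the MRT group for Ddx60, and it also had the highest Cdkn2a of them, 8.07. At 15 d 8 of the 9 genes lay wholly higher in MRT than in BB brains, as did 12.4% of all genes, the exception being Ifih1 (0.19 ± 0.18). Signs of tumour cells differed between these groups: Cdkn2a was 4.32 to 5.83 with a median of 4.36 in MRT brains against 4.91 to 8.07 with a median of 6.88 in BB brains, and was called lower after MRT. The mean of the markers of dividing cells was 6.38 to 7.05 in MRT brains against 6.42 to 8.83 in BB brains, with 3 of 10 called lower after MRT. Of all 14217 genes, 249 were called lower in this comparison. Macrophage marker means at 15 d were 8.39 to 8.69 in MRT brains against 7.19 to 8.59 in BB brains, and the part of all these cells was not tested.

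At 48 h Mx1 differed by 1.91 ± 0.42 between MRT and BB brains (adjusted p = 0.00419). Rsad2, Irf7, Irf9, Usp18 and Ddx60 also did not overlap at 48 h, which with Mx1 makes 6 of the 9 genes, where 7.33% of all genes lay wholly higher after MRT. These 5 had differences of 0.59 to 1.34 that were not called, and with only the groups compared all 5 were called, with adjusted p from 0.00859 to 0.0401. At 6 h Ifit3 differed by 0.99 ± 0.29 (adjusted p = 0.0330, and 0.104 with only the groups compared). At 8 d the differences were 1.25 ± 0.24 for Irf7 (adjusted p = 0.000533), 1.23 ± 0.37 for Rsad2 (adjusted p = 0.0494) and 0.63 ± 0.17 for Irf9 (adjusted p = 0.0257). The call of Irf7 held without any 1 of the 4 BB rats, and the other 2 turned on the low pair: without rat 54 or 56, Rsad2 (0.88 and 0.96, adjusted p = 0.460 and 0.235) and Irf9 (0.54 and 0.42, adjusted p = 0.217 and 0.245) were lost, and without rat 57 6 genes were called, with Mx1 (1.65, adjusted p = 0.0147), Usp18 (0.97, adjusted p = 0.0440) and Ifit3 (1.43, adjusted p = 0.0203) added. Without rat 55, Mx1 (1.68, adjusted p = 0.00848) and Ifit3 (1.31, adjusted p = 0.0432) were added. The 48 h call of Mx1 was lost without BB rat 50 (1.78, adjusted p = 0.0739), and that of Rsad2 at 8 d with arrays set to a common median (adjusted p = 0.0546), with the mean of probe sets (adjusted p = 0.0517) and, with that of Irf9 (adjusted p = 0.0807), when only the groups compared were fitted (adjusted p = 0.0809). That last fit added Ddx60 at 8 d (adjusted p = 0.0312) and Ifit3 at 15 d (adjusted p = 0.0207). At 48 h Irf7 was gained under quantile normalization (adjusted p = 0.0455) and a common median (adjusted p = 0.0473), and Irf9 with the mean of its probe sets (adjusted p = 0.0413). The second probe set of Irf9 alone was called at 48 h as well (0.71 ± 0.20, adjusted p = 0.0406). At 15 d Mx1 was lost without MRT rats 41 or 42 or BB rat 59 (1.48 to 1.56, adjusted p from 0.0506 to 0.0757), Ddx60 without MRT rats 41 or 42 (1.69 and 1.58, adjusted p = 0.0534 and 0.0869) and Rsad2 without BB rat 59 (1.46, adjusted p = 0.0530). Without MRT rat 10, Irf9 was added at 6 h (0.44, adjusted p = 0.0448).

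**Figure D5:**
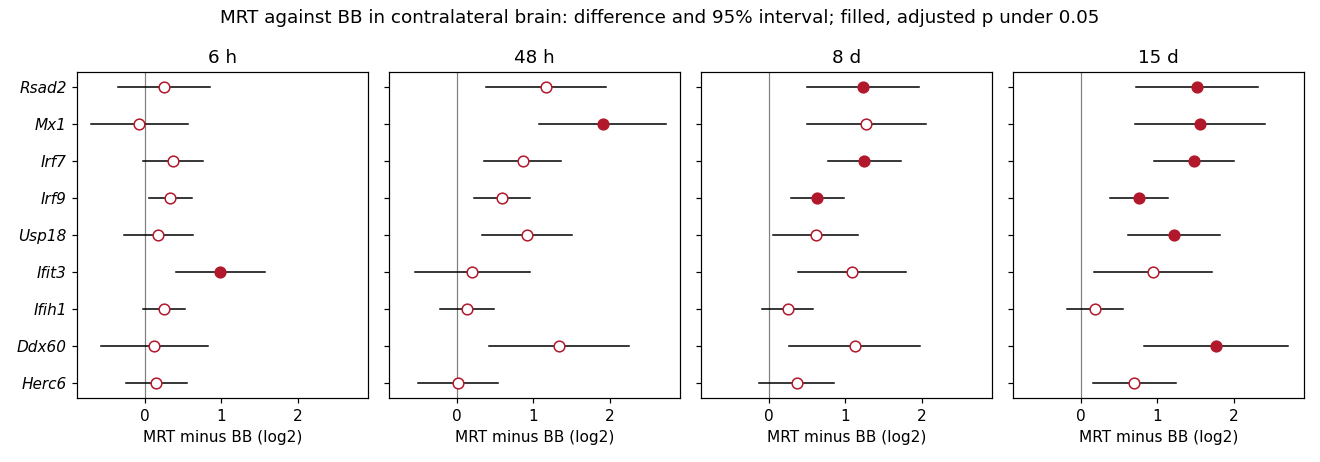
Log2 difference of MRT minus BB contralateral brain with its 95% interval for each of the 9 genes at 6 h, 48 h, 8 d and 15 d; filled points have adjusted p under 0.05. At 15 d 6 points are filled, from 0.76 for Irf9 to 1.77 for Ddx60.

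The tissues differed before any irradiation. In untreated tumours 8 of the 9 genes were higher than in untreated contralateral brain, where 40.5% of all genes were called higher, from 0.30 ± 0.13 for Ifih1 to 2.97 ± 0.30 for Mx1. Herc6 was lower in untreated tumours by -0.47 ± 0.19 (adjusted p = 0.0203), and -0.36 under quantile normalization (adjusted p = 0.0882). The call of Ifih1 was lost without any 1 of untreated tumours 5, 15 and 16 or contralateral samples 15, 16, 17 and 28 (0.25 to 0.28, adjusted p from 0.0515 to 0.0832), and that of Herc6 without tumours 16 or 27 (-0.41, adjusted p = 0.0501 and 0.0514).

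The tests of the effect in tumours minus the effect in brain gave few calls. Their main fit, like that of untreated tumours against untreated brain, took no account of which samples came from the same rat. At 6 h none of the 9 was called after MRT or BB (limma), with 4 and 1 at an unadjusted p under 0.05 and 0.767% and 0.837% of all genes called lower in tumours. The largest was Mx1 after MRT, -1.96 ± 0.59 (adjusted p = 0.111), and it was called with the rat as a replicate block (-1.96, adjusted p = 0.0384), without contralateral MRT rat 10 (-2.25, adjusted p = 0.0174) and without the untreated tumour of rat 1 (-2.26, adjusted p = 0.0460). At 48 h Mx1 had a smaller effect in tumours after MRT, by -2.28 ± 0.66 (adjusted p = 0.0422), where 1.03% of all genes were called in that direction. This call was lost without untreated tumours 15, 16 or 17 or contralateral sample 18 (-2.12 to -2.46, adjusted p from 0.0557 to 0.120). After BB at 48 h no gene was called (limma) and none had an unadjusted p under 0.05, with 1.24% of all genes lower.

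At 8 d the effect was greater in tumours for Herc6 after both treatments, by 1.84 ± 0.44 for MRT (adjusted p = 0.000670) and 1.70 ± 0.49 for BB (adjusted p = 0.0215), and for Ifit3 after MRT, by 1.87 ± 0.73 (adjusted p = 0.0369). That made 2 of the 9 genes for MRT and 1 for BB, where 15.4% and 2.24% of all genes were called in that direction. For MRT the count is near the share over all genes, so it does not set the 9 genes apart. Herc6 was 7.16 to 9.25 with a median of 7.65 in MRT tumours of 8 d, against 4.81, 5.70, 5.52 and 5.58 in untreated tumours, and 6.54 to 7.24 with a median of 6.82 in MRT brain, against 6.21, 6.21, 6.11 and 6.07 in untreated brain. The untreated level of Herc6 was thus lower in tumours than in brain and the MRT level higher. The call of Ifit3 was lost without untreated tumour 27 (1.39, adjusted p = 0.158) or contralateral sample 30 (1.63, adjusted p = 0.0885), under quantile normalization (adjusted p = 0.0514) and with only the groups compared (adjusted p = 0.0719). The BB call of Herc6 was lost without untreated tumour 27 (1.50, adjusted p = 0.0717) or BB tumour 55 (1.36, adjusted p = 0.109).

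Other genes of the pathway were followed in 5 lists. Their counts at 6 h, 48 h and 8 d stand beside 5.36%, 13.2% and 5.71% of all genes called higher in MRT brain and 8.92%, 6.46% and 3.24% in BB brain. In tumours these shares were 1.01%, 1.86% and 21.8% after MRT and 10.3%, 1.37% and 8.36% after BB. Among 28 other antiviral effectors measured, 24 were higher in MRT contralateral brain at each of 6 h, 48 h and 8 d, and 22, 3 and 12 were in BB brain. In tumours 3, 3 and 18 were higher after MRT and 8, 1 and 8 after BB. In contralateral brain at 6 h after MRT these included Ifitm3 (2.64 ± 0.22), a membrane protein that blocks viral entry, and Dtx3l (2.45 ± 0.21), an interferon-induced ubiquitin ligase, and in MRT tumours at 8 d Cmpk2 (2.25 ± 0.29), whose gene neighbours Rsad2. Single effectors fell. Adar, an RNA-editing enzyme, fell in BB tumours (-0.56 ± 0.13) and BB brain (-0.47 ± 0.12) at 6 h. Ifit1 fell at 48 h in BB tumours (-0.73 ± 0.16) and MRT brain (-0.56 ± 0.16), and Tor3a in BB brain (-0.35 ± 0.13). Ifit1 and Tor3a are named after their values were seen. Of the 14217 genes, 1008 were called lower in BB tumours and 1796 in BB brain at 6 h. At 48 h 174 were called lower in BB tumours, 2706 in MRT brain and 2151 in BB brain. The median differences over all genes at 48 h were 0.04, -0.11 and -0.15 in these 3 comparisons. Falls of single genes were thus common in brain at 48 h.

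Of 10 genes of signal transduction and feedback, 6, 7 and 3 were higher in MRT brain and 5, 1 and 1 in BB brain at 6 h, 48 h and 8 d. In tumours 0, 2 and 10 were higher after MRT and 1, 0 and 5 after BB. In MRT brain at 6 h Isg15, the ubiquitin-like modifier, rose by 2.96 ± 0.27 and the transcription factor gene Irf1 by 2.94 ± 0.27. In MRT tumours at 8 d Stat2 rose by 1.05 ± 0.18 and Irf8, a factor of macrophages, by 1.87 ± 0.33. Of 7 sensing genes, 4, 3 and 3 were higher in MRT brain and 3, 0 and 0 in BB brain. In BB brain the adaptor gene Mavs fell at 48 h (-0.50 ± 0.16), where 2151 of all 14217 genes were called lower. In tumours 5 of the 7 sensing genes were higher after MRT and 3 after BB, all at 8 d. Among them were the sensor gene Zbp1 (2.41 ± 0.37 after MRT) and Sting1 (2.29 ± 0.31 after MRT), the adaptor for cytosolic DNA.

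Of 6 interferons and receptors, Ifnb1, the gene of interferon beta, was called in none of the treated against untreated comparisons. Its difference was 0.11 ± 0.11 in MRT brain at 6 h and -0.08 ± 0.12 in MRT tumours at 8 d, with mean levels of 4.41 and 4.12. Both levels lie below the lower quartile of all intensities, which was 37 before log2. Detection of Ifnb1 was not assessed, so the lack of a call does not show that it was not induced. Ifng, the interferon gamma gene, was higher only in MRT tumours at 8 d among these comparisons (1.76 ± 0.33, adjusted p = 2.66e-05), where its receptor genes Ifngr1 (0.59 ± 0.20) and Ifngr2 (0.94 ± 0.15) were also higher. In BB tumours at 8 d Ifng had a difference of 0.84 ± 0.38 (adjusted p = 0.0990). Ifnar2, a chain of the type I receptor, rose by 0.56 ± 0.10 in MRT brain at 6 h.

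Genes of the interferon gamma type were followed apart. Of 11 measured, 10, 8 and 7 were higher in MRT brain and 10, 1 and 0 in BB brain at 6 h, 48 h and 8 d, and in tumours 3, 2 and 11 after MRT and 4, 0 and 5 after BB. Cxcl10, the chemokine that draws T cells, rose by 6.03 ± 0.35, its relative Cxcl11 by 6.01 ± 0.39 and the GTPase gene Gbp2 by 5.65 ± 0.32 in MRT brain at 6 h. In contralateral brain Cxcl10 was 9.73 to 11.32 with a median of 10.87 after MRT and 9.95 to 10.36 with a median of 10.19 after BB at 6 h, against 4.32 to 5.13 in untreated rats. At 8 d it was 7.19 to 7.87 after MRT and 5.00 to 7.88 after BB, against 4.09 to 6.43 in untreated brain. In MRT tumours at 8 d Cxcl11 rose by 3.67 ± 0.62, Ciita, the regulator of MHC class II genes, by 2.90 ± 0.41 and Nlrc5 by 2.25 ± 0.34. In untreated tumours 10 of the 11 were higher at 8 d than at 6 h, as were 16% of all genes, where none of the 9 antiviral genes was called.

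Markers of other cells also moved in contralateral brain. At 6 h after MRT 5 of 11 macrophage markers were higher and 2 lower, 8 of 11 T and NK cell markers were higher with a median difference of 0.42, and 4 of 5 microglial markers were lower with a median of -1.74. Here 5.36% of all genes were called higher, and 407 of 14217 were called lower. Macrophage markers were higher for 9 of 11 at 48 h and 7 of 11 at 8 d after MRT, and for 4, 4 and 2 of 11 at 6 h, 48 h and 8 d after BB. The shares of all genes called higher were 13.2% and 5.71% after MRT, and 8.92%, 6.46% and 3.24% after BB. The mean of the macrophage markers in contralateral brain was 6.66 to 7.02 after MRT and 6.49 to 7.07 after BB at 6 h, against 6.09 to 6.51 in untreated rats, and 8.05 to 8.33 after MRT and 6.71 to 7.89 after BB at 8 d, against 6.88 to 7.15. Their part in the antiviral genes' values was not tested.

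The 9 genes varied together over arrays. Over the 59 tumour arrays the 36 pairwise Pearson correlations ran from 0.61 to 0.92 with a median of 0.82, and over the 56 contralateral arrays from 0.37 to 0.94 with a median of 0.74. The pair of Usp18 and Irf7 was the closest in contralateral brain (0.94), and that of Ddx60 and Ifih1 the loosest (0.37). The arrays share treatment groups, so these values describe the pattern and give no test. The genes whose pattern was most like the mean of the 9 were, over tumour arrays, Cmpk2 (r = 0.918), Isg15 (0.903), Rtp4 (0.898), Cxcl10 (0.897), Gch1 (0.893), Plek (0.887), Ifi44l (0.885), Bcl2a1 (0.883), Ifit2 (0.877) and Dhx58 (0.872). Over contralateral arrays they were Rtp4 (0.965), Isg15 (0.959), Rnf213 (0.923), Ifi44l (0.922), Ifi44 (0.917), Oas1b (0.915), Parp12 (0.911), Eif2ak2 (0.909), Parp9 (0.908) and Ifit2 (0.896). Rtp4, Isg15, Ifi44l and Ifit2 were in both.

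In contralateral brain the order of group means differed between genes. Ifit3 was highest in MRT brain at 6 h (8.67 ± 0.86), followed by BB brain at 6 h (7.68 ± 0.28) and MRT brain at 15 d (7.23 ± 0.38), and the first and second of these differed beyond their spread. Mx1 was highest in MRT brain at 15 d (9.07 ± 0.19), followed by MRT brain at 8 d (8.95 ± 0.26) and at 48 h (8.30 ± 0.63), of which the first and second did not differ beyond their spread. Rsad2 was at like levels in MRT brain at 6 h (10.31 ± 1.01), 8 d (10.22 ± 0.18) and 15 d (10.19 ± 0.16), neighbours that did not differ beyond their spread. In tumours MRT at 8 d had the highest mean for all 9 genes, and BB at 8 d the second-highest for 7. The exceptions were Ifit3, where MRT at 6 h (8.61 ± 1.00) came second, and Ddx60, where MRT at 15 d (9.92 ± 0.84) did.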

How the data were processed

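Total RNA of 59 tumour and 56 contralateral samples was read on 3' expression arrays, and the deposited values are whole-number array intensities that the authors had already summarised and normalized. Per the submitters' processing notes, RMA and Expression Console were used for BB arrays, and RMA, MAS5 and Expression Console for the others, with no versions given. The intensities ran from 7 to 27837 with array medians of 117 to 165, so rounding to whole numbers alone makes steps of 0.193 log2 at the lowest values. Of 31099 probe sets, 57 were controls, 436 carried more than 1 gene symbol and 9780 carried no symbol, and these were not used. The brightest of each gene's probe sets gave 14217 genes.

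Log2 intensities were fitted by group means in limma 3.58.1 (R 4.3.3) with a mean-variance trend, per tissue or, for contrasts of tissues, over all 115 arrays, and p-values were adjusted by Benjamini-Hochberg over all genes and called under 0.05. Intervals are 95% moderated t intervals. Groups come from the sample titles. The 9 members, the gene lists and the tests were chosen with earlier results of these data known. All 9 members were named throughout, and of other lists at most 3 called genes per comparison by the moderated statistic, interferons and receptors apart. Samples of both tissues came from the same rat, per the labels, for 55 rats, and 38 of the 55 same-rat correlations of deviations were over 0.1 (median 0.19, against -0.04 for other rats of the group). The rat as a block was therefore an alternative for contrasts of tissues. Other alternatives were quantile normalization, a common median, no dimmest 30% of genes, the mean of probe sets, only the groups compared, and leaving out single arrays of groups of up to 5, and after seeing the data, leaving out rats 37 and 38, 10 or 47. The analysis code was tested on simulated data. Figures used matplotlib 3.10.9.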

Additional observations from a re-analysis of the deposited data

Results flagged for a closer look

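In 23 of 189 gene and group pairs tested, 1 array lay apart from the rest of its group of 4 to 9, where chance gives about 1 in 20 for independent pairs. These pairs are not independent, since the 9 genes vary together over the same arrays and 1 animal can be counted several times. The BB tumour of rat 52 at 48 h was high for Rsad2 (10.79), Mx1 (10.14), Usp18 (10.15) and Herc6 (6.25). The untreated tumour of rat 5 at 6 h was high for Ifit3 (9.77), Ddx60 (9.17) and Herc6 (6.93). MRT rat 10 at 6 h was low in contralateral brain for Mx1 (4.81), Usp18 (6.95), Ddx60 (3.58) and Herc6 (5.52), and in the tumour for Ifit3 (6.23). Single high arrays were Mx1 in the BB tumour of rat 55 at 8 d (11.70), Mx1 in the BB brain of rat 60 at 15 d (7.91), Irf7 in the BB tumour of rat 61 at 15 d (10.74), Ifit3 in the BB tumour of rat 47 at 6 h (9.46), Ifit3 in the untreated brain of rat 30 at 8 d (6.43), Ifih1 in the untreated brain of rat 18 at 48 h (6.63) and Herc6 in the BB brain of rat 49 at 6 h (7.43). Single low arrays were Irf7 in the MRT tumour of rat 6 at 6 h (8.74), Irf7 in the MRT brain of rat 43 at 15 d (9.54), Ddx60 in the MRT tumour of rat 38 at 8 d (9.07) and Herc6 in the untreated tumour of rat 16 at 48 h (5.04).

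The size of the radiation effect differed between times for some genes, by a test of the difference itself in limma. In tumours the 8 d effect minus the 48 h effect of MRT was 2.42 for Rsad2, 1.33 for Irf7, 0.88 for Irf9, 2.37 for Ifit3, 2.80 for Ddx60 and 1.96 for Herc6. For BB it was 2.41 for Rsad2, 0.73 for Irf9, 2.59 for Ddx60 and 1.92 for Herc6. In contralateral brain the 6 h effect minus the 48 h effect was 2.80 for Ifit3 and 0.77 for Ifih1 after MRT, and 2.09 for Rsad2 and 2.01 for Ifit3 after BB. The 8 d effect minus the 48 h effect there was 1.50 for Irf7 and 1.57 for Usp18 after MRT, and 1.88 for Usp18 after BB. Between tissues, the tumour effect minus the brain effect was -2.28 for Mx1 at 48 h after MRT, 1.87 for Ifit3 and 1.84 for Herc6 at 8 d after MRT, and 1.70 for Herc6 at 8 d after BB.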

How the results depend on the processing

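None of the 109 called values of the 9 genes changed sign under the alternatives run, and 57 of the 260 not called did, none larger than 0.59. The numbers of genes called varied as follows, and where nothing is said the cause was not tested. With only the groups compared, which leaves fewer samples to estimate the spread, 1 gene was called for MRT and 0 for BB against untreated tumours at 6 h, 3 for MRT at 48 h, 1 between untreated tumours of 8 d and 6 h, and 0 for BB against untreated brain at 48 h. In that fit MRT against BB brain gave 0 at 6 h and 6 at 48 h, the MRT effect in brain at 6 h against 48 h 1, the BB effect in brain at 8 d against 48 h 0, and the MRT contrast of tissues at 8 d 1. MRT against BB brain at 48 h gave 2 under quantile normalization, a common median and the mean of probe sets. The MRT contrast of tissues at 8 d gave 1 under quantile normalization and 1 without the dimmest 30% of genes. That last setting leaves dim members such as Ifih1 and Herc6 untested. It also gave 1 for the MRT effect in brain at 6 h against 48 h and 0 for the BB contrast of tissues at 8 d. No member that stayed in lost a call under it. With the rat as a replicate block, the MRT contrast of tissues at 6 h gave 1 (Mx1, -1.96), and the block changed no other call. Without MRT rat 10, MRT against untreated tumours at 6 h gave 4, MRT against BB brain at 6 h 2, and the MRT contrast of tissues at 6 h 1.

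Leaving out 1 array at a time, the counts against untreated ran from 1 to 4 (MRT) and 3 to 7 (BB) in tumours at 6 h and 7 to 8 (BB) at 8 d, and in brain from 7 to 8 (BB) at 6 h, 0 to 1 (BB) at 48 h, and 7 to 8 (MRT) and 4 to 6 (BB) at 8 d. They ran from 4 to 7 (MRT) and 1 to 5 (BB) for 8 d against 48 h in tumours, 0 to 1 for BB at 6 h against 48 h, and 3 to 7 (MRT) and 0 to 1 (BB) for 15 d against 8 d. In brain, 6 h against 48 h gave 1 to 3 for either treatment, 8 d against 48 h 1 to 4 (MRT) and 0 to 3 (BB), and MRT against BB 0 to 1 at 48 h, 1 to 6 at 8 d and 4 to 6 at 15 d. Untreated tumours against brain gave 7 to 8, and the contrasts of tissues 0 to 1 (MRT, 6 h and 48 h), 1 to 2 (MRT, 8 d) and 0 to 1 (BB, 8 d). The other counts run in this way did not change. MRT against BB at 6 h was not run in this way in either tissue, since both groups hold more than 5 arrays, and only arrays of groups of up to 5 were left out. No background measure came with these values, so detection of dim genes such as Ifih1 was not assessed.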
